A study of Arabidopsis thaliana with 6 samples.

Results

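The genes described here are WES1, GH3.3, IAA29 and LBD29, which stand for auxin conjugation and for the early transcriptional response to auxin. They were chosen by name as genes with a probe set that the platform annotation pairs with exactly 1 gene, and the brightest probe set was to be taken where a gene had several. Each had 1 such probe set, so 4 of 13356 genes with a single-gene probe set are described. They are WES1 (AT4G27260, also called GH3.5, probe set 253908_at), GH3.3 (AT2G23170, 245076_at), IAA29 (AT4G32280, 253423_at) and LBD29 (AT3G58190, 251565_at). Each probe set is made of short oligonucleotides that together report 1 transcript.

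The samples were Arabidopsis thaliana shoots (accession Col-0, growth stage 1.03) from untreated seedlings kept on half-strength medium at 21 °C with a day of 16 h light and 8 h dark. WT seedlings were compared with 35S::KLU seedlings, which carry KLU, a gene for a cytochrome P450 that promotes organ growth, behind the broadly active 35S promoter of a plant virus. Each genotype had 3 samples, 1 Affymetrix ATH1 array per sample and 5 pooled seedlings per sample, from 3 independent experiments per the design text. The labels do not say how many transgenic lines the 35S::KLU seedlings came from, and the level of KLU was not analysed here. All levels below are log2 signals as deposited, all differences are 35S::KLU minus WT on that scale, and each ± is an SD over 3 arrays.

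Auxin is recognised by TIR1/AFB receptors, which bring about the destruction of Aux/IAA proteins and so release the auxin response factors (ARFs) that these proteins repress. Genes switched on by the ARFs include Aux/IAA genes themselves, GH3 genes and LBD genes, so they are widely read as early markers of auxin response. Several GH3 enzymes, though not all, join auxin to amino acids and thereby lower the pool of free, active hormone.

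The arrays were alike in scale, with medians between 6.01 and 6.05, and 1893 of 22746 probe sets (8.32%) passed an adjusted p of 0.05 in limma. Signals of 3′ minus 5′ control probe sets, a measure of RNA integrity averaged over 3 control genes, lay between 1.89 and 1.94 on all 6 arrays. Of 14 shoot markers 4 had a single-gene probe set, and among them RCA, the activase of Rubisco, reached levels between 14.00 and 14.23. LHCB4.2, for an antenna protein of photosystem II and the shoot marker with the smallest p, differed by 0.13 (limma adjusted p = 0.33). RCA differed by -0.11, LHCB4.1 by -0.032 and LHCB4.3 by 0.22 (limma adjusted p = 0.43, 0.86 and 0.60). Of 12 root markers 3 had one. The root hair expansin genes EXPA7 and EXPA18 had levels from 3.91 to 4.28 and from 4.60 to 5.08 over both genotypes. They differed by -0.17 and -0.073 (limma adjusted p = 0.29 and 0.81). PYK10, for a β-glucosidase abundant in roots, was between 10.02 and 10.52 in WT and between 10.57 and 10.85 in 35S::KLU (difference 0.43, limma adjusted p = 0.078). The PYK10 ranges did not overlap, and the part of root or hypocotyl tissue in the results below was not tested. In whole shoots, fewer cells expressing a gene and less RNA per cell cannot be told apart.

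Of the 4 genes, WES1 was higher in 35S::KLU by a margin that passed the test, and the other three did not pass. The 35S::KLU levels lay entirely above WT for WES1 and GH3.3 and entirely below WT for IAA29, and they overlapped for LBD29. Among all probe sets 4.05% passed as higher and 4.27% as lower. The genotypes did not overlap in 25.9% of all probe sets, 11.0% higher and 14.9% lower in 35S::KLU. The 4 genes were chosen with earlier results of these data known, so their own shares are a description.

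**Figure D1:**
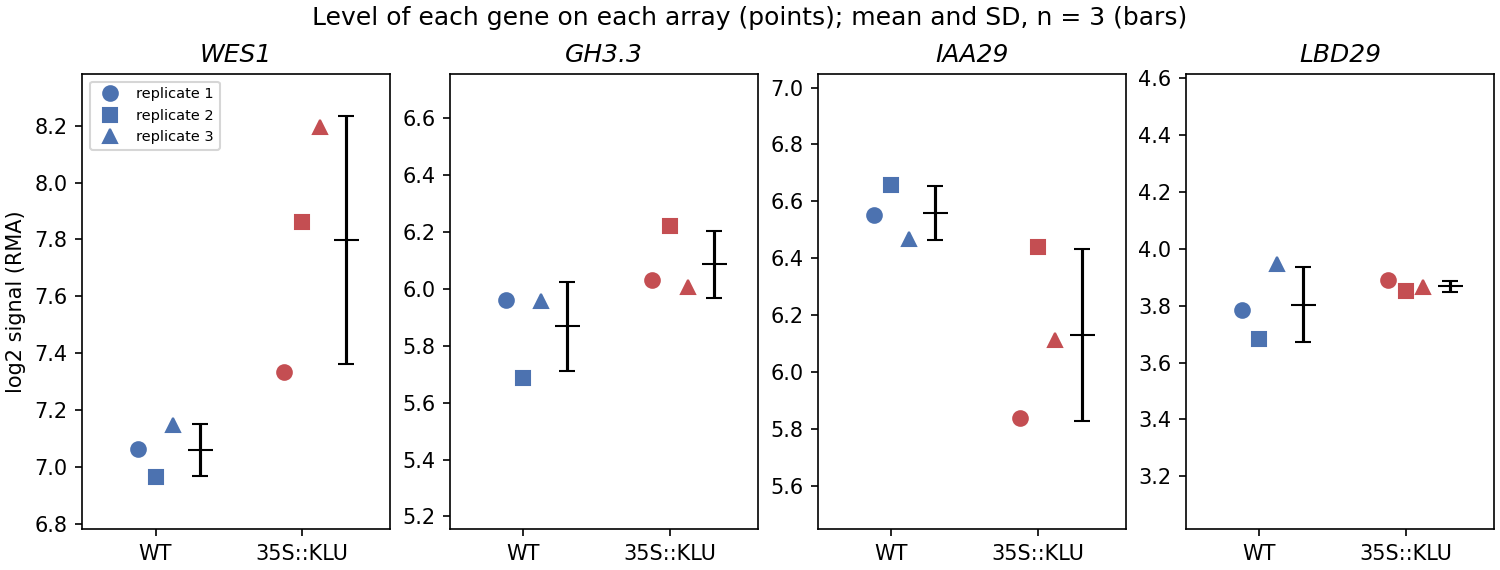
Level of WES1, GH3.3, IAA29 and LBD29 (vertical axis, log2 RMA signal, each panel spanning the same number of log2 units) on the 3 WT arrays (blue) and the 3 35S::KLU arrays (red), with the marker shape giving the replicate number and the black bars the mean and SD of 3 arrays. WES1 ranges from 7.33 to 8.20 in 35S::KLU, above all WT arrays, IAA29 lies below WT by a narrow margin, and the LBD29 arrays overlap.

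WES1 encodes a GH3 enzyme that conjugates indole-3-acetic acid, the main natural auxin, and can also act on salicylic acid. In WT its levels were 7.06, 6.97 and 7.15 in replicates 1 to 3. In 35S::KLU they were 7.33, 7.86 and 8.20. All 3 35S::KLU arrays were above all WT arrays, but replicate 1 of 35S::KLU was only 0.19 above the highest WT array. The means were 7.06 ± 0.09 and 7.80 ± 0.44, a difference of 0.74 (SE 0.18, 95% interval 0.34 to 1.14), or 1.67-fold with an interval of 1.26 to 2.20. WES1 rose by limma (adjusted p = 0.033 over all probe sets). Its absolute difference was larger than that of 98.3% of probe sets. The arrays of 35S::KLU also disagreed more than those of WT, with an SD 4.77 times as large, a ratio above that of 95.5% of probe sets.

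Set against the WT mean, the 3 35S::KLU arrays gave WES1 differences of 0.27, 0.80 and 1.14, so that the size of the rise depended on the array. Without 35S::KLU replicate 1 the difference was 0.97 (limma adjusted p = 0.0019). Leaving out any of the other 5 arrays cost the call (adjusted p from 0.063 to 0.13), while the difference stayed between 0.54 and 0.78. The direction was therefore the same in all 6 of these fits and the side of the threshold was not.

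GH3.3 encodes a second auxin-conjugating GH3 enzyme whose transcript is induced rapidly by auxin. Its levels were 5.96, 5.69 and 5.96 in WT and 6.03, 6.22 and 6.01 in 35S::KLU. The groups did not overlap, yet only 0.044 separated the highest WT array from the lowest 35S::KLU array. The means were 5.87 ± 0.16 and 6.09 ± 0.12, a difference of 0.22 (SE 0.10, 95% interval -0.00037 to 0.44), and it did not pass (limma adjusted p = 0.23, unadjusted p = 0.0503). Replicate 2 was the lowest array of WT and the highest of 35S::KLU. Without WT replicate 2 the difference was 0.13, and without 35S::KLU replicate 2 it was 0.15.

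The 2 GH3 genes were also compared within each array, as the level of WES1 minus that of GH3.3. This within-array value was 1.1, 1.28 and 1.19 in WT and 1.3, 1.64 and 2.19 in 35S::KLU. It was higher in every 35S::KLU array than in any WT array, by 0.52 on average and by 0.28 without 35S::KLU replicate 3. A two-sided exact permutation test over the 6 arrays gave p = 0.1, the smallest that 3 arrays against 3 allow, and 0.15 after Benjamini-Hochberg adjustment over 6 pairs of genes. Since this test cannot pass 0.05 with so few arrays, its p-values do not speak for or against a difference in response between the 2 GH3 genes.

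IAA29 encodes an Aux/IAA repressor, and its transcription is also promoted by the phytochrome-interacting factors (PIFs) in shade and warmth. Its levels were 6.55, 6.66 and 6.47 in WT and 5.84, 6.44 and 6.11 in 35S::KLU. Every 35S::KLU array was below every WT array, and 35S::KLU replicate 2 was so by 0.025. The means were 6.56 ± 0.10 and 6.13 ± 0.30, a difference of -0.43 (SE 0.13, 95% interval -0.73 to -0.13) that did not pass over all probe sets (limma adjusted p = 0.091, unadjusted p = 0.010). The linear signal was 1.35 times as high in WT, with an interval of 1.09 to 1.66.

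The IAA29 result also turned on single arrays. Against the WT mean the 35S::KLU arrays differed by -0.72, -0.12 and -0.45. Without 35S::KLU replicate 2 the difference was -0.58 and passed (limma adjusted p = 0.017), and without 35S::KLU replicate 1 it was -0.28 (adjusted p = 0.19). The array with the lowest IAA29 level, 35S::KLU replicate 1, was also the 35S::KLU array with the lowest WES1 level.

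LBD29 encodes a LOB-domain transcription factor that acts downstream of ARFs in lateral root formation. Its levels were 3.78, 3.68 and 3.95 in WT and 3.89, 3.85 and 3.86 in 35S::KLU. The 35S::KLU arrays all fell within the WT range. The difference was 0.06 (SE 0.08, 95% interval -0.12 to 0.25, limma adjusted p = 0.72). This probe set was dim, with a mean lower than the bottom quartile of each array (4.06 to 4.11), and only between 15.2% and 21.8% of probe sets were dimmer on any array. How far the signal of so dim a probe set follows the transcript was not tested.

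**Figure D2:**
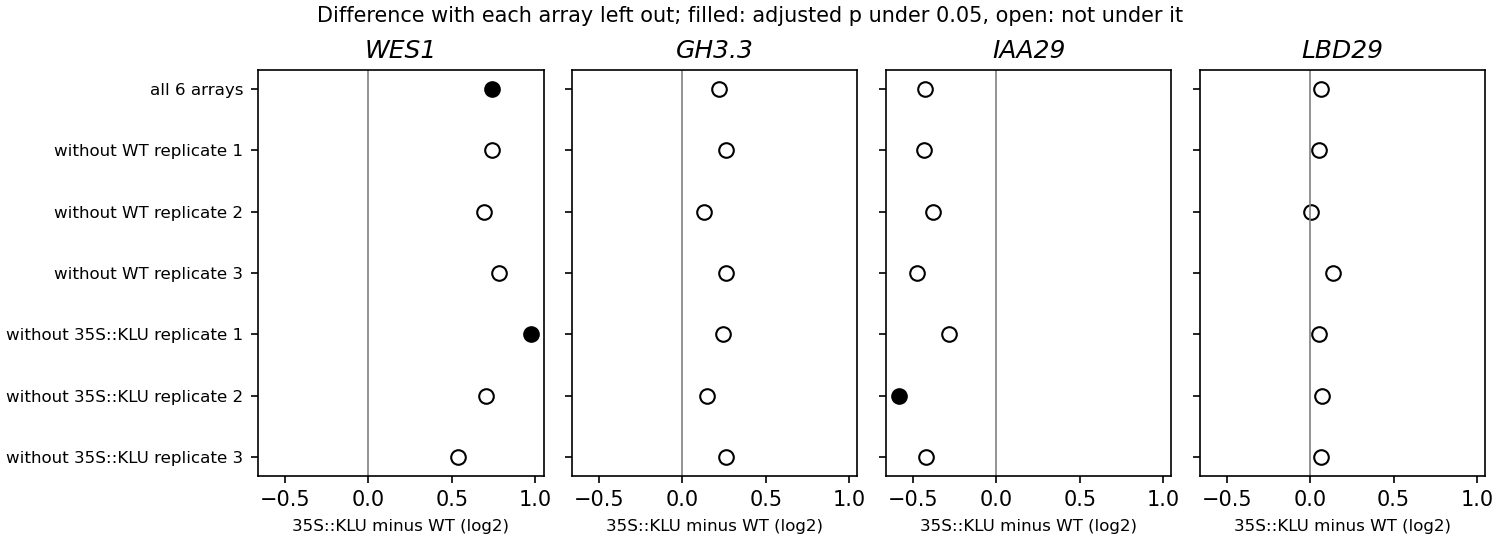
Difference between 35S::KLU and WT (horizontal axis, log2) for each of the 4 genes with all 6 arrays and with each array left out in turn (vertical axis). Filled points have a limma adjusted p under 0.05 and open points do not. WES1 stays between 0.54 and 0.97 and is filled with all arrays and without 35S::KLU replicate 1, and IAA29 is filled without 35S::KLU replicate 2 only.

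Within arrays, WES1 and IAA29 moved apart most among the 6 pairs of the 4 genes. The average shift of a pair is the difference between its 2 single-gene differences, so this ranking follows from those and adds nothing to them. WES1 minus IAA29 was 0.51, 0.31 and 0.68 in WT and 1.50, 1.42 and 2.08 in 35S::KLU. The groups stood clear of each other by more than the range of either, and the average shift was 1.17 (exact permutation p = 0.1, which is again the smallest the test allows and so decides nothing, adjusted p = 0.15 over 6 pairs). GH3.3 minus IAA29 shifted by 0.65 and WES1 minus LBD29 by 0.67, also with no overlap and the same p-values. For the 2 pairs with IAA29, the lack of overlap and the p-value follow from the separate ranges of the single genes. They add nothing to those ranges. GH3.3 minus LBD29 shifted by 0.15 (exact permutation p = 0.3, adjusted p = 0.3) and IAA29 minus LBD29 by -0.49 (exact permutation p = 0.2, adjusted p = 0.24), both with overlapping groups.

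Around WES1 and GH3.3, 11 of 19 listed GH3 genes had a single-gene probe set. Of these 1 rose (WES1), 0 fell and 10 did not pass, and the median difference was 0.0076 beside -0.017 over all 13356 genes. Among all genes by their brightest probe set, 6.85% passed, with 3.51% higher and 3.34% lower. For 7 of the 11 the mean level lay under the bottom quartile. These were GH3.1, GH3.7, GH3.8, GH3.13, GH3.16, GH3.18 and GH3.19. Their differences lay between -0.22 (GH3.16, limma adjusted p = 0.11) and 0.096 (GH3.19, adjusted p = 0.51). GH3.16 was lower in every 35S::KLU array than in any WT array, as were 14.9% of all probe sets. With dim probe sets filtered out only the 4 brighter GH3 genes remained, and their median difference was 0.28. Over all probe sets that the filter kept, the median difference was -0.023. The 0.28 rests in part on WES1 and GH3.3, which were chosen with earlier results of these data known. Of the 4 brighter genes, WES1, GH3.3 and GH3.17 were higher in every 35S::KLU array than in any WT array. Over all probe sets, dim ones included, this held for 11.0%. GH3.9 differed by 0.0076 (95% interval -0.14 to 0.15).

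GH3.17, which encodes an enzyme that prefers to join auxin to glutamate, had levels of 6.65, 6.53 and 6.61 in WT and 6.75, 6.98 and 7.08 in 35S::KLU. All 35S::KLU arrays were above all WT arrays, and their order was that of WES1. The difference was 0.34 (SE 0.09, 95% interval 0.13 to 0.55) and just missed the threshold (limma adjusted p = 0.053). GH3.17 passed under each of the 3 other scalings of the arrays (adjusted p between 0.041 and 0.0496). It did not pass with limma-trend (adjusted p = 0.061) or with the replicate number as a block (adjusted p = 0.10).

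The IAA29 list held 7 measured genes of 29 Aux/IAA genes, and 0 of them rose or fell (limma, 6.85% of all genes passing). An unadjusted p under 0.05 was found for 1 of the 7 and for 21.7% of all probe sets. The median difference was -0.0083. Apart from IAA29 they ran from -0.088 (IAA34) through -0.050 (IAA33), -0.0083 (IAA30), 0.0037 (IAA20) and 0.037 (IAA31) to 0.041 (IAA18). IAA18 was the bright one of these, with levels from 8.09 to 8.26, and its interval ran from -0.12 to 0.20. IAA30 and IAA31 were dim, with a mean level under the bottom quartile. IAA29 was thus the Aux/IAA gene with the largest measured difference, and a test of it against the others was not made. LBD16, a lateral root regulator and the other measured member of 42 listed LBD genes, differed by -0.038 (95% interval -0.19 to 0.12).

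**Figure D3:**
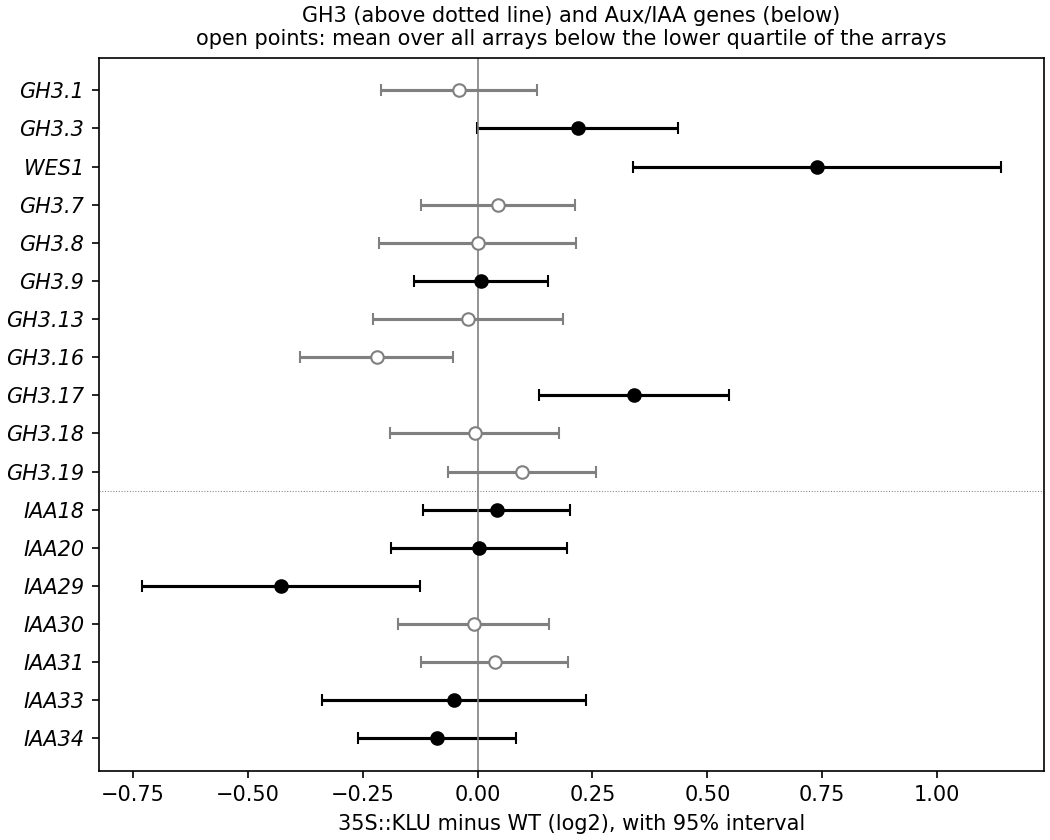
Difference between 35S::KLU and WT (horizontal axis, log2, with the 95% interval of the limma fit) for the 11 measured GH3 genes and the 7 measured Aux/IAA genes (vertical axis). Open points mark genes whose mean over all 6 arrays lay under the arrays' bottom quartile. WES1 at 0.74 and IAA29 at -0.43 lie farthest from 0, followed by GH3.17 at 0.34.

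Few genes of the other parts of the auxin pathway could be read from the annotation used here, which lists no gene for 8730 probe sets. Of 6 receptor genes, 15 ARF genes and 80 SAUR genes, 0 were paired with a probe set of their own in it, so they were not analysed here, and the counts below cover only the genes it lists. The background is that 6.85% of all genes passed and 21.7% of all probe sets had an unadjusted p under 0.05. Of 4 measured auxin synthesis genes 0 passed in limma and 0 had an unadjusted p under 0.05, and YUC6, for a flavin monooxygenase that makes auxin, came nearest at -0.13 (limma adjusted p = 0.50). Of 4 measured genes of conjugate hydrolysis, oxidation and glycosylation 0 passed, with 2 at an unadjusted p under 0.05. The mean level lay under the bottom quartile for 2 of these 4 and for 1 of the 4 synthesis genes. UGT74D1, for a glucosyltransferase that acts on auxin, had levels from 8.28 to 8.40 in WT and from 8.10 to 8.18 in 35S::KLU, a difference of -0.22 (limma adjusted p = 0.090, and 0.031 with array weights). Of 8 alternatives that kept every array, UGT74D1 passed only in that 1, and its adjusted p reached 0.15. WAG2, a protein kinase gene and the 1 transport gene measured, differed by 0.14 (limma adjusted p = 0.38).

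Beside IAA29, the list of shade and PIF response genes had 1 other measured member of 21, the homeobox gene HAT2, whose transcript is induced by auxin. HAT2 levels were 8.68, 8.43 and 8.24 in WT and 7.65, 8.15 and 7.73 in 35S::KLU. As for IAA29, replicate 2 was the 35S::KLU array nearest to WT and replicate 1 the lowest. HAT2 fell by 0.61 (SE 0.14, limma adjusted p = 0.030), and it passed without WT replicate 3 or without 35S::KLU replicate 2 but lost its call when any of the other 4 arrays was left out (adjusted p from 0.073 to 0.11). Since WES1 also acts on salicylic acid, 14 genes of that hormone were listed. Of these SAG101, a partner of the immune regulator EDS1, was the 1 measured. It rose by 0.50 (limma adjusted p = 0.0030), with levels from 4.15 to 4.31 in WT and from 4.67 to 4.78 in 35S::KLU, and it passed without each array in turn. Its WT levels lay only just above the bottom quartile of the arrays (4.06 to 4.11). Over all genes 6.85% passed, and 1 measured gene does not stand for the 14.

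**Figure D4:**
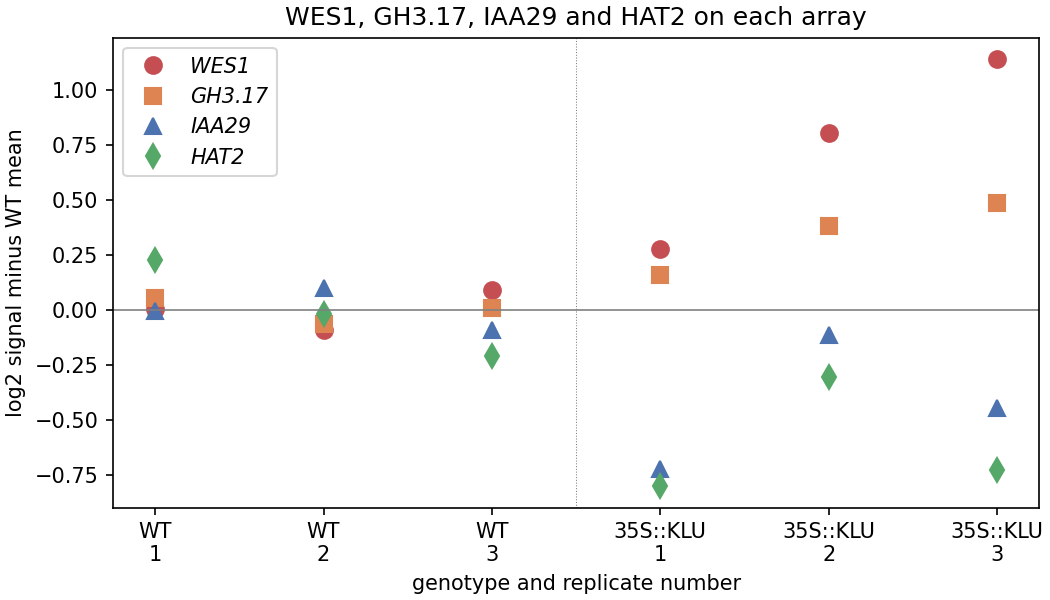
Level minus the WT mean (vertical axis, log2) of WES1, GH3.17, IAA29 and HAT2 on each of the 6 arrays (horizontal axis, genotype and replicate number). WES1 and GH3.17 are least raised in 35S::KLU replicate 1, where WES1 is 0.27 above the WT mean, and IAA29 and HAT2 are least lowered in 35S::KLU replicate 2, where IAA29 is 0.12 below it.

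The genes most like each of the 4 were taken as the 3 with the highest Pearson correlation over the 6 arrays, among genes whose SD over the arrays was at least 0.2. These correlations are descriptions over 6 arrays of 2 genotypes, so they carry the genotype difference. The tests of genes picked in this way are therefore no separate support for the 4 genes. For WES1 they were AT4G02370 (0.997), GH3.17 (0.987) and AT5G44530 (0.977), and 71 of 1678 genes reached 0.9. AT4G02370 differed by 0.32 and, like GH3.17, did not pass (limma adjusted p = 0.079 and 0.053). AT5G44530 rose by 0.44 (limma adjusted p = 0.020) and passed without 35S::KLU replicate 1 or WT replicate 3, but not without any of the other 4 arrays (adjusted p up to 0.079). For GH3.3 they were AT5G37790 (0.981), AT5G57230 (0.974) and AT3G47800 (0.915), and 4 genes reached 0.9. For IAA29 they were AT2G46780 (0.993), the expansin-like gene EXLA2 (0.992) and the tetraspanin gene TET10 (0.955), and 26 genes reached 0.9. Of these 3, TET10 fell by 0.38 (limma adjusted p = 0.022) and no longer passed once 35S::KLU replicate 1, 35S::KLU replicate 3 or WT replicate 2 was removed (adjusted p up to 0.10). AT2G46780 differed by -0.43 and EXLA2 by -0.35, and neither passed (limma adjusted p = 0.096 and 0.084). For LBD29, whose signal was dim, they were the plastid genes petA (0.957) and cemA (0.903), and AT4G01130 (0.920). None of the genes picked for GH3.3 or LBD29 passed.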

How the data were processed

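Per the submitters' processing notes, the authors made the deposited log2 values with RMA (no version given), a method of background correction, quantile normalization and summary over probes. Of 22810 probe sets, 64 controls were left out and 22746 tested with no filter on level. The platform annotation paired 13513 probe sets with 1 gene, 503 with several and 8730 with none, and 13436 of the 13513 matched the RefSeq table of assembly TAIR10.1. The other 77 kept the annotation's name. No build is named for the files, so no positions are given.

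All 6 arrays entered a limma fit (version 3.58.1, lmFit and eBayes, R 4.3.3). Tests were two-sided, p-values were adjusted by the Benjamini-Hochberg method across the 22746 probe sets, and the threshold was 0.05. The script was tested on simulated data, where it found 50.7% of 67 planted differences of 0.5 and 97.0% of 67 differences of 1. Many differences of 0.5 were thus missed there. The simulation held fewer changed probe sets than passed here, so its shares need not hold for these data. The replicates came from 3 independent experiments, and p-values measure the spread between these samples. Exact permutation tests used scipy 1.17.1, tables pandas 2.3.3 and figures matplotlib 3.10.9. Genes named were the 4 genes, all measured GH3 and Aux/IAA genes, from each other list those past the threshold or else the one with the smallest p, and the 3 most correlated with each of the 4. LBD16, RCA, LHCB4.1, LHCB4.3, EXPA7 and EXPA18 were named besides, after their values were seen. The genes and lists were chosen with earlier results of these data known. The labels number the replicates alike in both genotypes, but same-numbered arrays deviated from their group means with correlations of -0.20, 0.039 and -0.056, so they were not treated as pairs.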

Additional observations from a re-analysis of the deposited data

How the results depend on the processing

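The alternatives were median-centring, quantile and cyclic loess normalization of the deposited values, a block for the replicate number, limma's array weights, omission of single arrays, a filter on dim probe sets, limma-trend, robust eBayes, other thresholds, and 1 probe set per gene. WES1 kept its direction in 15 of 15 and passed in all 9 that kept every array (0.74 to 0.81), while with 1 array left out its difference ran from 0.54 to 0.97 and it passed in 1 of 6. IAA29 kept its direction in 15 of 15. It passed with array weights (-0.46, adjusted p = 0.035) and without 35S::KLU replicate 2, and with 1 array left out it ran from -0.58 to -0.28. UGT74D1 passed with array weights too (-0.24, adjusted p = 0.031). The weights were 2.77 for WT replicate 2 and 0.53 for WT replicate 1. GH3.3 (0.13 to 0.31) and LBD29 (0.0041 to 0.14) passed in none, and LBD29 had no value with the filter on dim probe sets. WES1 minus GH3.3 lay between 0.28 and 0.73. With the replicate number as a block, which the arrays do not bear out as a pairing, the adjusted p was 0.031 for WES1 and 0.068 for IAA29, and PYK10 passed (adjusted p = 0.028), as it also did with array weights (0.027) and without WT replicate 3 (0.019). No other call named in the text changed under the block. Averaging several probe sets of a gene was not run, since each of the 4 genes has 1.

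The count of probe sets past the threshold, 1893, was 1279 with the replicate block, 2978 with array weights, 789 at a threshold of 0.01, and from 906 to 1962 with 1 array left out. It split into 922 higher and 971 lower, and into 1085 and 845 after cyclic loess and 1037 and 880 after quantile normalization. GH3.17 passed with array weights, the filter on dim probe sets, robust eBayes and without 35S::KLU replicate 1 as well as under the 3 scalings, so 2 GH3 genes passed under each of these 7, and 0 did without any of the other 5 arrays. Differences near 0 changed sign without passing. These were GH3.8 (0.037 with array weights, 0.0093 with cyclic loess, 0.0052 median-centred, 0.0027 quantile), GH3.18 (0.044 with array weights, 0.0028 with cyclic loess), IAA20 (-0.019 with array weights) and IAA30 (0.0031 with cyclic loess). With 1 array left out GH3.7 ran from -0.013 to 0.081, GH3.8 from -0.068 to 0.10, GH3.9 from -0.0075 to 0.022, GH3.13 from -0.094 to 0.027, GH3.18 from -0.065 to 0.045, IAA20 from -0.050 to 0.088, IAA30 from -0.044 to 0.037, IAA31 from -0.0029 to 0.067 and IAA33 from -0.21 to 0.078. The cause of these shifts was not tested. LBD29, IAA30, IAA31, the 7 dim GH3 genes and the dim genes of the synthesis and conjugate lists lie in the bottom quartile of signal. No detection calls were used, so the values of these genes bear least weight.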
